A study of Mus musculus with 8 samples.

Results

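Long-term (LT) stem cells of chronic myelogenous leukaemia (CML) were compared with normal LT haematopoietic stem cells (LT-HSCs) gene by gene. The comparison used 4 of the 8 RNA-sequencing libraries of the study, 2 of LT-CML stem cells and 2 of LT-HSCs. It covered the 11855 of 20207 listed genes whose RPKM (reads scaled to transcript length and to the mapped reads of the library) summed to more than 1 over these 4 libraries. Both populations had been sorted from bone marrow as CD150+CD48-CD135-KLS+ cells, where KLS+ means positive for c-Kit and Sca-1 and negative for lineage markers. LT-CML stem cells came, by the study's methods, from Tal1-tTA+ TRE-BCR-ABL1+ mice, in which a tetracycline-controlled transactivator driven by Tal1 regulatory sequences switches on BCR-ABL1 when doxycycline (DOX) is withdrawn, and they were taken 5 weeks after withdrawal. By the same methods, LT-HSCs came from healthy Tal1-tTA+ littermates, which would share the transactivator and the DOX schedule. The methods describe mice of the FVB/N background aged 8 to 12 weeks, whereas the labels name C57BL/6 as the strain of all 8 libraries and give the age of the normal LT mice as 2 months for replicate 1 and 6 months for replicate 2, with no age for the leukaemic mice. An age of 6 months does not match a littermate of mice aged 8 to 12 weeks, so that library's source is uncertain. The methods also name C57BL/6 mice, for metabolite measurements. A difference of strain, age, transactivator or DOX schedule between the groups cannot be told apart from the disease. The labels do not say whether the libraries came from separate mice or pools, so p-values measure only the spread between libraries.

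CML begins in an HSC that acquires the BCR-ABL1 fusion, a constitutively active tyrosine kinase that engages the RAS-ERK, PI3K-AKT and JAK-STAT5 pathways. LT stem cells divide rarely, renew themselves and give rise to all blood lineages, and the leukaemic ones persist under kinase inhibitors that clear more mature cells. Quiescence of these cells is kept by CDK inhibitors, FOXO factors and niche signals, while interferons and growth factors that reach them through cytokine receptors drive them into division.

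The estimated depth was 19.9 and 23.9 M reads in the LT-HSC libraries and 20.7 and 18.2 M (mega) reads in the LT-CML libraries, and read numbers given here are estimates from it that cover counting error only. Pearson's r of log2(RPKM + 1) across the tested genes was 0.979 within LT-HSCs, 0.980 within LT-CML stem cells and 0.958 to 0.974 between the groups, and genes are not independent replicates. Replicate 2 of each group stood apart. The summed RPKM of neutrophil granule genes was 1000.3 and 5139 in the LT-HSC replicates and 699.5 and 4775 in the LT-CML replicates, against 14414 in the normal and 23442 in the CML library of lineage-negative, c-Kit+ and Sca-1- (KLS-) progenitors. None of these 21 genes was called in either direction (limma), and 6 had an unadjusted p under 0.05. Without LT-HSC replicate 1, 6 of them were lower, and without LT-CML replicate 1, 1 was higher. Their median log2 fold change was -0.38, and -1.22, 0.13, -0.08 and -1.99 without LT-HSC replicate 1, LT-HSC replicate 2, LT-CML replicate 1 and LT-CML replicate 2. Ddx3y, a Y-linked transcript, was 0 and 31.0 RPKM in the LT-HSC and 0.0625 and 17.5 in the LT-CML replicates, and Xist, transcribed from the inactive X chromosome, was 27.3 and 0.154 RPKM in the former and 30.8 and 13.5 in the latter. By these transcripts sex differed between the replicates of each group, and LT-CML replicate 2 held both transcripts. The summed RPKM of erythroid markers was 1581 in each LT-HSC replicate and 806 and 548 in the LT-CML replicates. Most of each of these sums came from the single gene Car2. The summed RPKM of MHC class II genes was 292 and 706 in the LT-HSC and 247 and 181 in the LT-CML replicates. T and NK cell markers summed to 90.3 and 103 RPKM in the LT-HSC and to 119 and 293 in the LT-CML replicates, highest in LT-CML replicate 2, with none of 6 tested members called (limma, 3 at an unadjusted p under 0.05). B cell markers summed to 31.7 to 42.8 RPKM, and 2 of 7 tested members were lower, against 1.25% of all genes called lower. Of the markers that define T and B cells, Cd3e reached at most 0.146 and Pax5 at most 0.0415 RPKM. Counts of called genes are therefore also given without each library in turn. The part of these features in the results was not tested.

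Each gene was tested by limma on the log2(RPKM + 1) scale, and the adjusted p is the Benjamini-Hochberg value over all 11855 genes. The standard error (SE) is that of the difference. At an adjusted p under 0.05, 150 genes were higher (1.27%) and 148 lower (1.25%) in LT-CML stem cells, 2.51% of the genes tested. All fold changes given as log2 are differences of log2(RPKM + 1), which understate the change of genes with low values. The median over all genes was -0.02, and 1407 of the 11855 genes had an unadjusted p under 0.05. At these shares a short list can hold no call without differing from all genes. In 17.5% of genes both LT-CML libraries lay above both LT-HSC libraries and in 23.1% both lay below. For a single gene, an exact two-sided permutation test of 2 libraries against 2 cannot give a p below 0.333. The calls were 95 higher and 134 lower without LT-HSC replicate 1, 73 and 64 without LT-HSC replicate 2, 48 and 18 without LT-CML replicate 1, and 33 and 13 without LT-CML replicate 2. A set of 34 genes, 25 higher and 9 lower, was called in each of these 4 fits. Each other called gene lost its call in at least 1 of them.

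**Figure D1:**
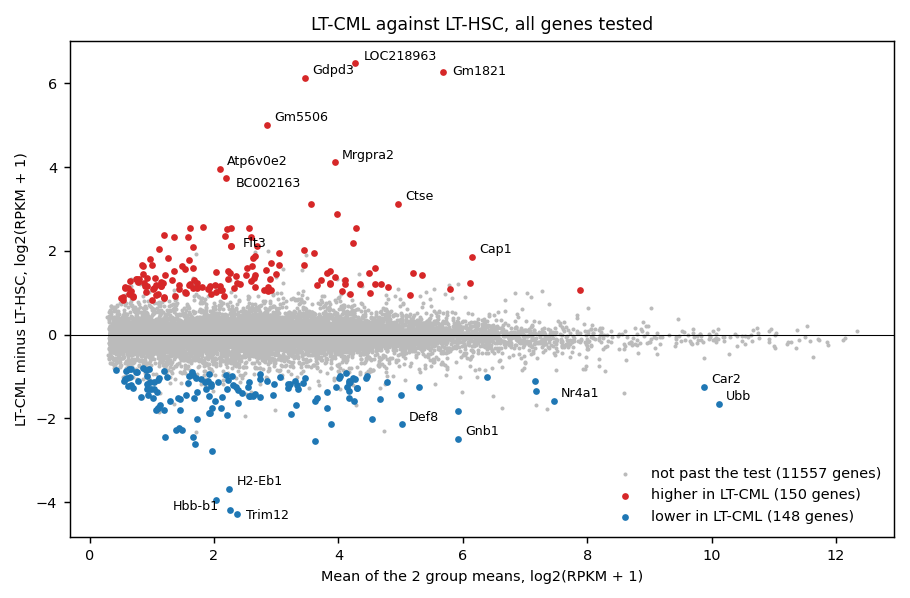
The mean level of each gene over both groups (horizontal axis, log2(RPKM + 1)) is plotted against the difference between LT-CML and LT-HSC libraries (vertical axis, log2(RPKM + 1)), with 150 genes higher in LT-CML in red, 148 lower in blue and the rest in grey. LOC218963, Gm1821 and Gdpd3 lie above 6, and Trim12 and Hbb-b1 lie below -4.

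The largest rise of a protein-coding gene that shared no sequence with another was that of Gdpd3, a glycerophosphodiester phosphodiesterase that releases lysophosphatidic acid from lysophospholipids. Gdpd3, at chr7:133909928-133919157 of mm9 on the plus strand, was 0.329 and 0.314 RPKM in the LT-HSC replicates and 95.0 and 88.5 in the LT-CML replicates, about 7 and 8 reads against 2097 and 1718. The ratio of group means was 286 and the log2 fold change 6.13 (SE 0.19, limma adjusted p = 6.17e-07). The groups were far apart and their replicates close together. Its neighbours on the chromosome were not called, with log2 fold changes of -0.03 for Mapk3, a MAP kinase, and -0.02 for Ypel3. Gdpd3 was called in each fit without 1 library. Among 32 tested genes of lysophospholipid enzymes and receptors, 2 were higher (6.25%, against 1.27% of all genes called higher). None was lower and the median log2 fold change was 0.14. The other was Lpar2, a receptor for lysophosphatidic acid, at 0.211 and 0.147 RPKM in LT-HSCs and 1.36 and 1.06 in LT-CML stem cells (log2 fold change 0.90, limma adjusted p = 0.0280). Its groups did not overlap, but it lost its call whichever of the 4 libraries was left out.

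Ctse, Pld4 and Atp6v0e2, whose products act in endosomes or lysosomes, rose, whereas the list of lysosomal genes gave few calls. Ctse, which encodes the aspartic protease cathepsin E, was 8.58 and 10.6 RPKM in LT-HSCs and 99.6 and 83.1 in LT-CML stem cells, a log2 fold change of 3.13 (SE 0.21, limma adjusted p = 0.000120). Pld4, an exonuclease of the phospholipase D family in endolysosomes, was 2.23 and 3.85 and 36.6 and 31.0 RPKM (log2 fold change 3.13, SE 0.24, limma adjusted p = 0.000320). Both genes were far above the LT-HSC range in each LT-CML library and were called in each fit without 1 library. Atp6v0e2, a subunit of the proton pump that acidifies these compartments, was 0 and 0.160 RPKM in LT-HSCs and 17.6 and 14.2 in LT-CML stem cells, with log2 fold change 3.96 (limma adjusted p = 2.17e-05), and was also called in each such fit. Its paralogue Atp6v0e was 148 and 146 and 158 and 124 RPKM and was not called, and none of the other V-ATPase genes among 18 tested was. Of 46 lysosomal genes 2 were higher and 1 lower, 6.52% called against 2.51% over all genes. Their median was 0.06, against -0.02 over all genes. Lgmn, the asparaginyl endopeptidase legumain, was 0.615 and 0.961 RPKM in LT-HSCs and 3.04 and 3.11 in LT-CML stem cells (log2 fold change 1.19, limma adjusted p = 0.0133). Ctsh, the cysteine protease cathepsin H, lay the other way, at 7.66 and 10.5 against 2.44 and 2.77 RPKM (log2 fold change -1.47, limma adjusted p = 0.00879). Lgmn lost its call whichever library was left out, and Ctsh in each such fit but that without LT-HSC replicate 1.

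Other rises included 3 receptor genes, Mrgpra2, Mrgpra1 and Tnfrsf14. Mrgpra2, a Mas-related G-protein-coupled receptor, was 0.915 and 6.05 RPKM in LT-HSCs and 70.6 and 56.1 in LT-CML stem cells (log2 fold change 4.12, SE 0.48, limma adjusted p = 0.00261). Mrgpra1, of the same family, was listed at 0 in both LT-HSC libraries and at 3.69 and 4.75 RPKM in the LT-CML libraries (limma adjusted p = 0.000367). Tnfrsf14, the TNF-receptor family member HVEM, was 1.52 and 1.88 and 12.5 and 12.7 RPKM (log2 fold change 2.34, limma adjusted p = 0.000489). Mmp16, a membrane-bound matrix metalloproteinase, was 0.800 and 1.19 RPKM in LT-HSCs and 8.94 and 9.55 in LT-CML stem cells, a log2 fold change of 2.37. In each of these genes the lowest LT-CML value was several times the highest LT-HSC value. Stc2, which encodes the secreted glycoprotein stanniocalcin 2, was 0.0839 and 0.0233 against 3.18 and 2.24 RPKM. Rcvrn, which encodes recoverin, a calcium-binding protein known from photoreceptors, was 0.0944 and 0.434 against 4.68 and 8.59 RPKM (log2 fold change 2.56). Tnfrsf14, Mrgpra1, Mmp16, Stc2 and Rcvrn were called in each fit without 1 library. Mrgpra2 was not called without LT-CML replicate 1 (limma adjusted p = 0.0886) or without LT-CML replicate 2 (limma adjusted p = 0.0861).

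In the Serpina3 cluster of serine protease inhibitors on chromosome 12, 3 genes were called higher. Serpina3f was 3.82 and 5.99 RPKM in LT-HSCs and 43.2 and 40.03 in LT-CML stem cells (log2 fold change 2.88, SE 0.23, limma adjusted p = 0.000367). Serpina3h was 0.0735 and 0.0410 and 3.67 and 3.15 RPKM (log2 fold change 2.06, limma adjusted p = 0.000512), and Serpina3c was listed at 0 in both LT-HSC libraries and at 1.08 and 1.36 RPKM in the LT-CML libraries. Between positions 105384592 and 105491879 these were 3 of the 4 genes tested, an interval whose ends were set by the called genes themselves. No other of the 16 tested serpins was called (18.8% called, against 2.51% over all genes). Serpina3f and Serpina3h were called in each fit without 1 library, whereas Serpina3c kept its call only without LT-HSC replicate 1. The cluster holds close copies, and 10.4% of the 50-base words of Serpina3f and 21.9% of those of Serpina3h occurred in other annotated genes, so that reads may have been shared among its members.

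**Figure D2:**
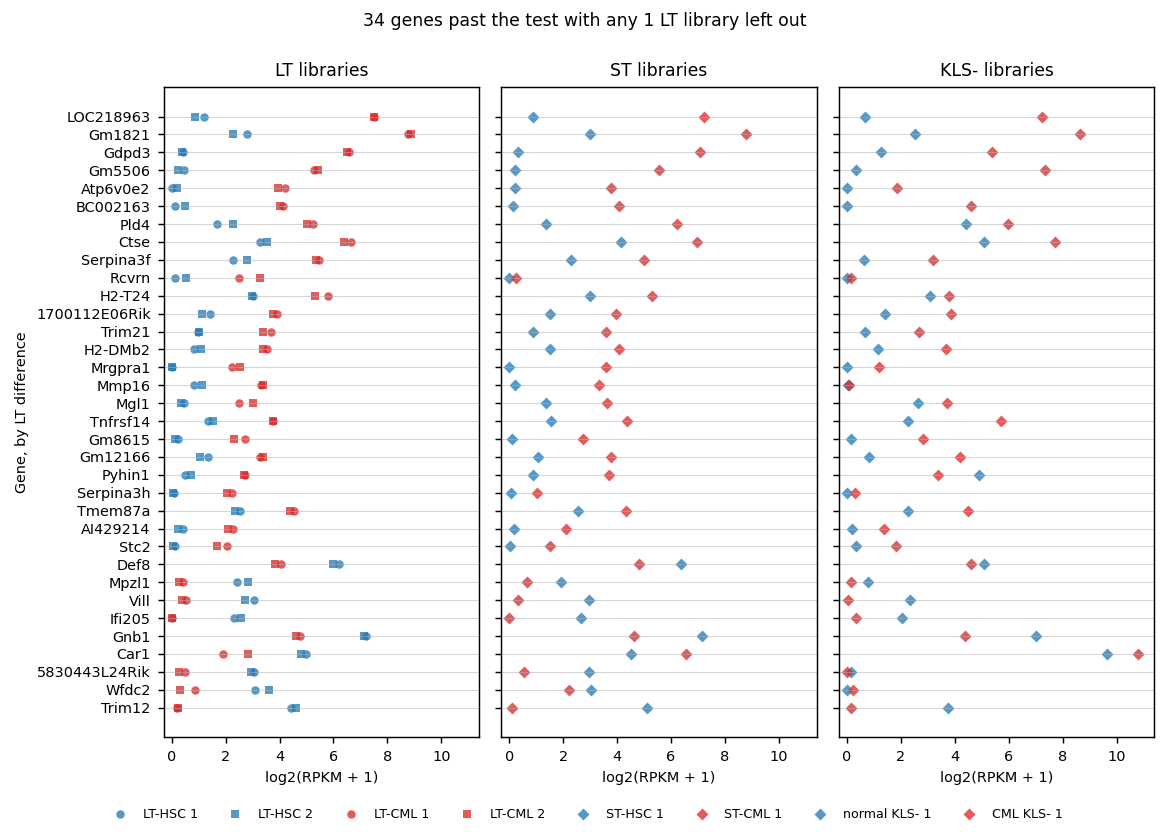
Levels of the 34 genes called in each fit without 1 library (horizontal axes, log2(RPKM + 1)) are shown for the LT libraries on the left, the short-term (ST) stem cell libraries in the middle and the KLS- progenitor libraries on the right, with normal libraries in blue and CML libraries in red. The colours separate in the LT panel for all 34 genes, and Car1 and Pyhin1 change sides in other panels.

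Some of the strongest rises were in copies of other genes. Gm1821, at 46703801 to 46704490 of chromosome 14 of mm9, shared 90.6% of its 50-base words with other annotated genes and most with the polyubiquitin gene Ubb. Gm1821 was 5.97 and 3.89 RPKM in LT-HSCs and 436 and 470.5 in LT-CML stem cells (log2 fold change 6.28, limma adjusted p = 1.14e-06). Ubb went the other way, at 2124 and 1811 RPKM in LT-HSCs and 599 and 656 in LT-CML stem cells (log2 fold change -1.64, SE 0.20, limma adjusted p = 0.00273). Without LT-HSC replicate 1 and without LT-HSC replicate 2 the adjusted p of Ubb was 0.0808 and 0.0648 (limma).

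Other copies rose as well, while their source genes were not called. Gm5506 shared 87.6% of its words with other annotated genes, among them copies of the enolase gene Eno1. It was 0.369 and 0.190 RPKM in LT-HSCs and 37.97 and 42.3 in LT-CML stem cells (log2 fold change 5.01), while Eno1 was 11.97 and 8.27 and 12.8 and 12.7 RPKM and was not called. BC002163 shared 72.8% of its words, mainly with Ndufs5, a subunit of respiratory complex I, and was 0.100 and 0.417 against 16.5 and 15.1 RPKM, with Ndufs5 at 2.36 and 2.38 against 1.33 and 0.863. Gm8615 shared 57.6% of its words, mainly with Gnpda1, a glucosamine-phosphate deaminase, and was 0.170 and 0.101 against 5.61 and 3.93 RPKM, with Gnpda1 at 12.1 and 9.46 against 7.70 and 6.87. All 4 copies were called in each fit without 1 library, and of the source genes only Ubb was called with all 4 libraries. Over all tested genes with annotated sequence 6.36% shared at least 10% of their words, compared with 15.8% of the genes called higher and 17.9% of those called lower. Values of such genes are uncertain, since reads that fit both copies may have been split between them, and how the authors counted such reads is not given in the sources used here. LOC218963, which had the largest rise (1.28 and 0.821 against 182 and 181 RPKM, log2 fold change 6.48), had no annotated sequence to compare.

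The deepest falls were led by Trim12, a tripartite-motif gene. Trim12 was 20.3 and 23.3 RPKM in LT-HSCs and 0.158 and 0.180 in LT-CML stem cells, a log2 fold change of -4.28 (SE 0.20, limma adjusted p = 8.20e-06). No annotated locus of that name was matched, so its overlap with related Trim genes was not tested. Gnb1, the beta subunit of heterotrimeric G proteins with a high level in all normal populations, was 146 and 140.2 RPKM in LT-HSCs and 26.2 and 23.2 in LT-CML stem cells (log2 fold change -2.49, SE 0.19, limma adjusted p = 0.000318). Its paralogue Gnb2 was 9.41 and 11.3 against 5.85 and 6.93 RPKM and was not called (limma adjusted p = 0.231). Def8 was 72.5 and 61.8 against 15.7 and 13.2 RPKM (log2 fold change -2.14, limma adjusted p = 0.000803). Vill, a villin-like actin-binding protein, was 7.27 and 5.53 against 0.435 and 0.293 RPKM, and Mpzl1, a surface glycoprotein of the immunoglobulin superfamily, 4.32 and 6.13 against 0.348 and 0.210. Wfdc2, a secreted whey-acidic-protein family member, was 7.58 and 11.3 against 0.819 and 0.233 RPKM. In these 6 genes the groups did not overlap, and all 6 were called in each fit without 1 library. Sfrs2, a splicing factor of the SR family, was 104 and 123 against 29.3 and 33.2 RPKM (log2 fold change -1.83, limma adjusted p = 0.00168), and Ncoa7, a nuclear-receptor coactivator, 17.1 and 17.3 against 4.28 and 3.59 RPKM (log2 fold change -1.89).

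Most interferon-stimulated genes lay lower in LT-CML stem cells than in LT-HSCs. Interferons act through a complex that holds STAT2 and IRF9 and binds an element built of repeated GAAA in the promoters of antiviral genes. Of 58 tested members of the list, 8 were lower and 1 higher, 15.5% called against 2.51% over all genes. A negative log2 fold change was found in 53 of the 58, against 6242 of all 11855 genes. In 38 of the 58 both LT-CML libraries lay below both LT-HSC libraries, against 23.1% of all genes. The median log2 fold change was -0.53, against -0.02 over all genes. At an unadjusted p under 0.05, 27 were negative and 2 positive. The called falls numbered 2 without LT-HSC replicate 1, 9 without LT-HSC replicate 2, 2 without LT-CML replicate 1 and 0 without LT-CML replicate 2, with medians of -0.33, -0.72, -0.72 and -0.40.

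Rsad2, which encodes the antiviral enzyme viperin, was 5.56 and 7.23 RPKM in LT-HSCs and 1.06 and 0.943 in LT-CML stem cells (log2 fold change -1.88, SE 0.21, limma adjusted p = 0.00179). Bst2, the membrane protein tetherin that holds back budding viruses, was 25.5 and 24.2 and 8.89 and 5.02 RPKM (log2 fold change -1.74, SE 0.25, limma adjusted p = 0.00802). Cxcl10, a chemokine for activated T cells, was 3.02 and 4.45 and 0.591 and 0.620 RPKM (log2 fold change -1.54, SE 0.21, limma adjusted p = 0.00524). In each of these 3 genes both LT-CML libraries lay well below both LT-HSC libraries. Ifit1, which binds viral RNA, was 11.8 and 5.51 against 2.71 and 1.35 RPKM (log2 fold change -1.63, limma adjusted p = 0.0388), and its LT-HSC replicates differed about as much as did its LT-CML replicates. Iigp1, an immunity-related GTPase, was 28.8 and 35.4 against 13.7 and 7.24 RPKM (log2 fold change -1.58), and Ifih1, the RNA sensor MDA5, 16.3 and 11.1 against 6.42 and 5.09 RPKM (log2 fold change -1.10). Zbp1, a nucleic-acid sensor, was 7.12 and 6.65 against 3.15 and 1.69 RPKM. Cmpk2, a nucleotide kinase, was 3.40 and 3.53 against 1.01 and 0.982 RPKM. It lies beside Rsad2 and Rnf144a on chromosome 12, between positions 26991662 and 27164700, where all 3 tested genes were lower. The ends of this interval were set by the called genes themselves, so its share of calls has no test of its own. Irf7, a transcription factor of the pathway, was 12.5 and 3.41 RPKM in LT-HSCs and 3.48 and 2.55 in LT-CML stem cells and was not called. The one higher member was Trim21, a cytosolic antibody receptor and ubiquitin ligase, at 0.994 and 1.01 against 11.9 and 9.46 RPKM (log2 fold change 2.54, limma adjusted p = 0.000379), which was called in each fit without 1 library. Of the 8 lower members none was called in all 4 of these fits.

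**Figure D3:**
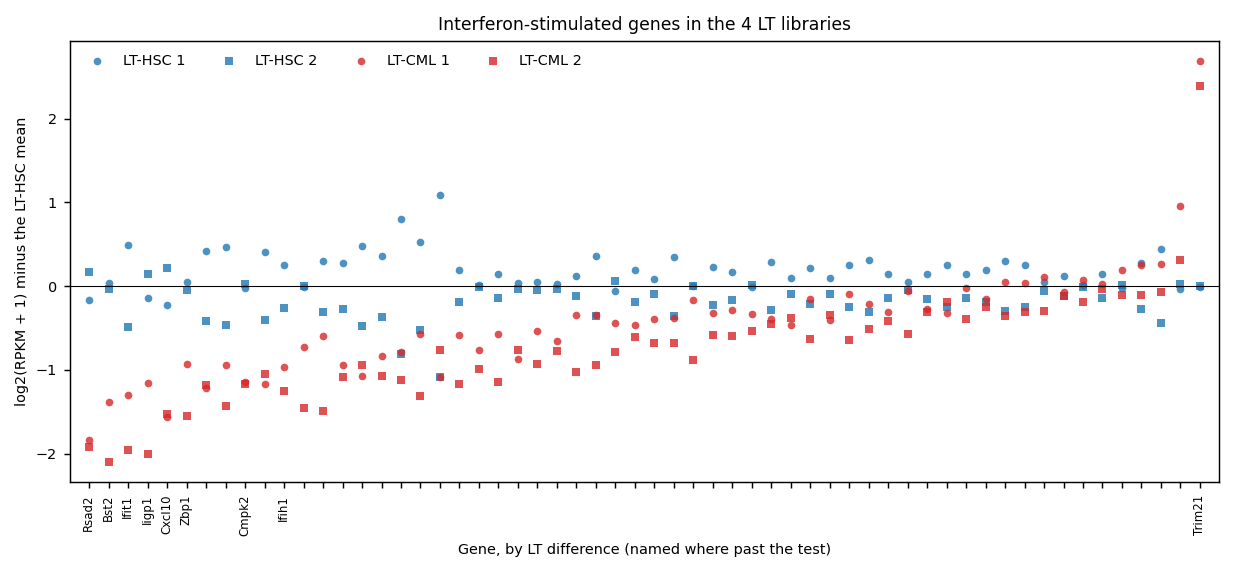
For each of the 58 tested interferon-stimulated genes (horizontal axis, by difference), each LT library is plotted as log2(RPKM + 1) minus the mean of the LT-HSC libraries (vertical axis), with names below the genes that passed the test. Red LT-CML points lie below blue LT-HSC points in 38 genes, and Trim21 at the right end lies above 2.

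Of the 8 lower members, 6 had a promoter in the RefSeq table. The promoters of 4 of them are shown because the interferon element can be read in them, while Ifih1 and Cmpk2 had no match in the same window. They are RefSeq sequences of GRCm38.p6, a later build than the mm9 of the files, of the 250 bases before the start, read 5' to 3' on the strand of the gene. Capitals mark GAAA followed, after any 2 bases, by another GAAA, or the reverse complement of this motif, searched on both strands.
Rsad2: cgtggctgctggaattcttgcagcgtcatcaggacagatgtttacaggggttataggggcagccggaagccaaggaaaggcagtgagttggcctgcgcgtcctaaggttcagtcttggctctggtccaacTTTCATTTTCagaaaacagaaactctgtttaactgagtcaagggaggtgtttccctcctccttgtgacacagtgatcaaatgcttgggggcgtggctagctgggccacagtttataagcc
Ifit1: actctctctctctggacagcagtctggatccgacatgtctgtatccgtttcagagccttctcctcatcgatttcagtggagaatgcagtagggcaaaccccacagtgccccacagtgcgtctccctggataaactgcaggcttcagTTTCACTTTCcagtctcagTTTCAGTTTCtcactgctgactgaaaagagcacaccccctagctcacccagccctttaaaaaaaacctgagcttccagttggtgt
Bst2: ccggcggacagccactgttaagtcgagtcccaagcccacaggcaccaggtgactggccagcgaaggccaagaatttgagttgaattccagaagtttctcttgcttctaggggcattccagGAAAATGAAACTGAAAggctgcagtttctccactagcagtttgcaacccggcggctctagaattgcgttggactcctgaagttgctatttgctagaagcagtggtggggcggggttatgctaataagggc
Cxcl10: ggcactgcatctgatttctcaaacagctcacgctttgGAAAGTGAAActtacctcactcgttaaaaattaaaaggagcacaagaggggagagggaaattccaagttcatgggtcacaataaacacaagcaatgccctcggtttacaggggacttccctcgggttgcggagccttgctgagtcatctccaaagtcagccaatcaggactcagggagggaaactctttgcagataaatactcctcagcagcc
Rsad2 lies at chr12:26456453-26456702 on the minus strand, Ifit1 at chr19:34640639-34640888 on the plus strand, Bst2 at chr8:71537473-71537722 on the minus strand and Cxcl10 at chr5:92348890-92349139 on the minus strand. Ifit1 held 2 matches, Bst2 2 overlapping matches, and Rsad2 and Cxcl10 1 each. The motif occurred in 3.46% of the 27025 genes with a promoter in the table and in 3.32% of the 8195 tested genes found there. It occurred in 13 of 85 genes called lower (15.3%), in 3 of 88 called higher (3.41%) and in 17 of 42 interferon-stimulated genes (40.5%). Lower genes with the motif outside the interferon list were Apobec3, Ifi203, Ifi205, H2-T22, H2-T23, Slamf8, Fosl2, Eps8l1 and Rpe. Apobec3, a restriction factor of retroviruses, was 64.2 and 54.9 RPKM in LT-HSCs and 27.2 and 21.7 in LT-CML stem cells (log2 fold change -1.26, limma adjusted p = 0.0142). A match describes the letters and not the binding of a factor.

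The p200 genes, DNA sensors and nuclear regulators that interferon induces, were divided. Of 6 tested, 3 were lower and 1 higher, 66.7% called against 2.51% over all genes. Ifi205 was 3.97 and 4.87 RPKM in LT-HSCs and listed at 0 in both LT-CML libraries (limma adjusted p = 0.000318). Ifi204 was 6.07 and 6.38 against 1.18 and 0.814 RPKM (log2 fold change -1.86, limma adjusted p = 0.00168), and Ifi203 41.8 and 43.0 against 14.7 and 13.4 RPKM (log2 fold change -1.53, limma adjusted p = 0.00360). These 3 fell, with no overlap of the groups. Pyhin1 rose, from 0.416 and 0.634 RPKM in LT-HSCs to 5.57 and 5.46 in LT-CML stem cells (log2 fold change 2.10, limma adjusted p = 0.000712). Ifi205 and Pyhin1 were called in each fit without 1 library, Ifi204 lost its call without LT-CML replicate 2, and Ifi203 without either LT-CML library. Aim2, the inflammasome sensor beside them, was 3.67 and 6.502 and 6.00 and 7.90 RPKM and was not called. Ifi205 shared 49.5% of its words with other genes, Pyhin1 36.0%, Ifi204 28.4% and Ifi203 8.40%, so their split is uncertain.

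These genes lie in a stretch of chromosome 1 dense in called genes. From Slamf1 at 173697258 to Olfr417 ending at 176299979 (mm9), 26 genes were tested, 7 were higher and 5 lower (46.2%, against 2.51% over all genes). The higher genes were Slamf1, Fcer1a, Darc, BC094916, Pyhin1, Spna1 and Olfr417, and the lower ones Pex19, Slamf8, Ifi204, Ifi203 and Ifi205. Slamf1, which encodes the CD150 used in the sort, was 14.3 and 10.7 RPKM in LT-HSCs and 35.5 and 25.4 in LT-CML stem cells (log2 fold change 1.21, limma adjusted p = 0.0305). Fcer1a, the alpha chain of the IgE receptor, was 0.538 and 1.68 against 3.53 and 4.55 RPKM, and Darc, an atypical chemokine receptor, 1.56 and 2.42 against 7.80 and 5.22. Slamf8, an immune receptor of the same family as Slamf1, was 0.786 and 1.74 against 0.118 and 0.0808 RPKM. Slamf1 kept its call only without LT-HSC replicate 1 among the fits without 1 library. The stretch was found from these calls and has no test of its own.

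The major histocompatibility complex (MHC) on chromosome 17 had as many H2- genes called in either direction. Its proteins present peptides to T cells, class I on most cells and class II on antigen-presenting cells. Of 28 tested H2- genes, 7 were higher and 7 lower, against 2.51% of all genes called in either direction. Between 34280252 and 37147580 of mm9, 82 genes were tested and 18.3% were called. The ends of this interval were set by called genes, so this share has no test of its own. In class I, H2-T24 was 7.14 and 6.91 RPKM in LT-HSCs and 54.4 and 38.6 in LT-CML stem cells (log2 fold change 2.55, SE 0.22, limma adjusted p = 0.000503). H2-T3, the thymus leukaemia antigen, was 0.115 and 0.884 against 8.96 and 6.35 RPKM (log2 fold change 2.56, SE 0.28, limma adjusted p = 0.00168). H2-T10 was 9.01 and 5.86 against 18.2 and 17.9 RPKM and H2-Bl 0.0991 and 0.0829 against 2.01 and 1.49, both higher. Lower were H2-T23, a non-classical molecule that binds leader peptides, at 196 and 223 against 96.2 and 97.4 RPKM (log2 fold change -1.10), and H2-Q7 at 54.3 and 49.3 against 19.9 and 17.1 RPKM (log2 fold change -1.44). H2-Q8, H2-T9 and H2-T22 were lower as well, with log2 fold changes of -1.10, -1.37 and -0.88. The classical molecules were not called, with H2-K1 at 404 and 439 against 251 and 212 RPKM and H2-D1 at 438 and 376 against 430.2 and 359. Neither was B2m, their common light chain, at 2340.0 and 2300.0 against 2218 and 1567 RPKM.

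In class II, H2-DMb2, a beta chain of the peptide editor H2-M, was 0.765 and 1.12 RPKM in LT-HSCs and 10.6 and 9.56 in LT-CML stem cells (log2 fold change 2.52, limma adjusted p = 0.000379). Its neighbour H2-DMb1 was 18.3 and 26.4 and 19.4 and 15.2 RPKM and was not called. H2-Ob, a chain of the inhibitor of that editor, was 6.95 and 3.20 against 0.145 and 0.226 RPKM (log2 fold change -2.29, limma adjusted p = 0.00334). H2-Eb1, a class II beta chain, was 7.60 and 32.3 against 0.347 and 0.296 RPKM (log2 fold change -3.68, limma adjusted p = 0.00500), with both LT-CML libraries far below both normal ones. H2-Ea was 0.0640 and 0.0535 against 1.23 and 0.771 RPKM and was called higher. H2-Ab1, at 21.3 and 55.3 against 24.1 and 18.6 RPKM, and H2-Aa, at 31.3 and 131 against 49.98 and 31.0, overlapped between the groups and were not called. Without LT-CML replicate 1 the H2- family had 2 higher and 0 lower calls, without LT-CML replicate 2 it had 3 and 0, without LT-HSC replicate 1 it had 6 and 6, and without LT-HSC replicate 2 it had 5 and 4. H2-T24 and H2-DMb2 were called in all 4 of these fits. Many H2- genes share sequence, from 3.01% of words in H2-T24 to 60.8% in H2-T9, and their reads may have been exchanged.

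**Figure D4:**
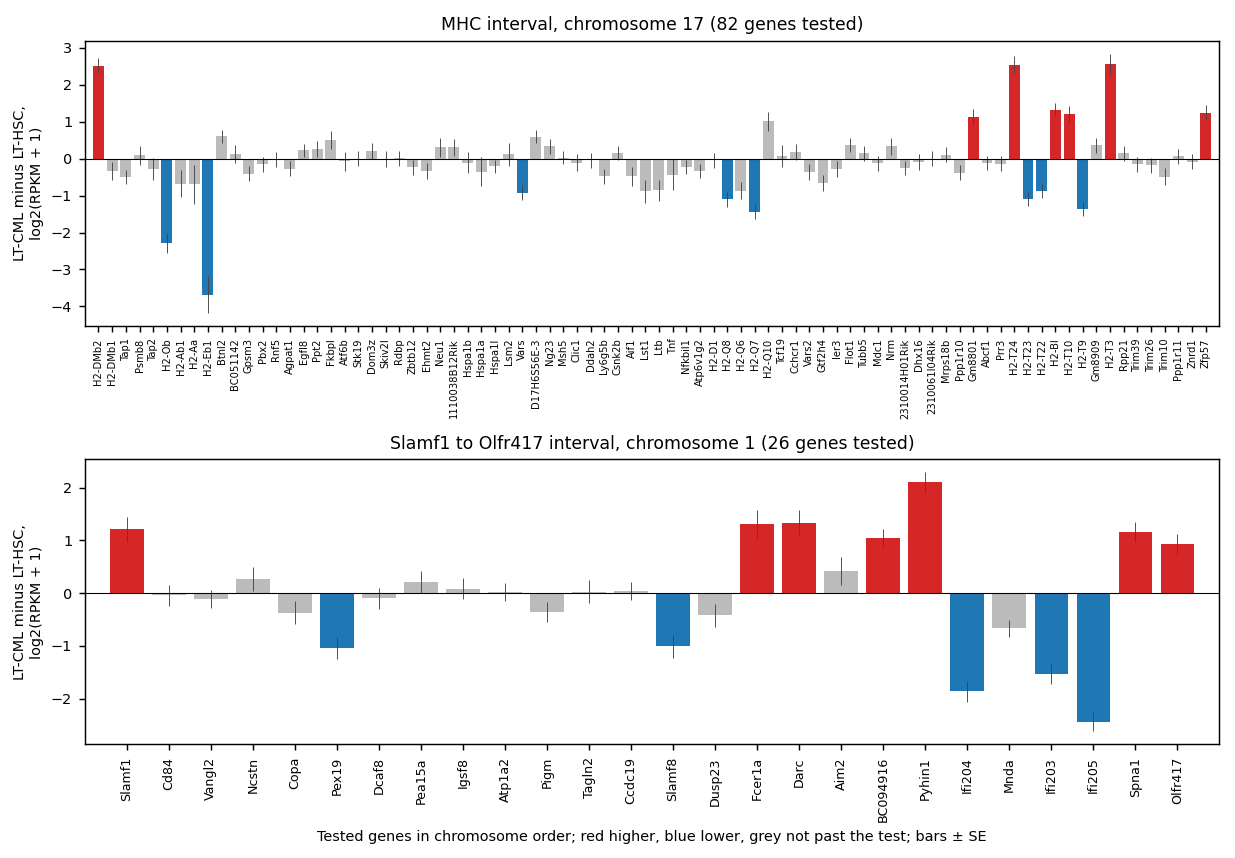
Bars give the LT-CML minus LT-HSC difference in log2(RPKM + 1) with its standard error (vertical axes) for tested genes in chromosome order (horizontal axes) in the MHC interval of chromosome 17 (top, 82 genes) and the Slamf1 to Olfr417 interval of chromosome 1 (bottom, 26 genes), with called rises in red and called falls in blue. Both colours occur side by side in each interval.

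Cytokine receptors and signalling genes showed rises in a small number of members. Of 47 tested cytokine receptors, 5 were higher (10.6%, against 1.27% of all genes called higher), none was lower and the median was 0.04. Flt3, the receptor tyrosine kinase CD135 that the sort selects against, was 3.95 and 2.52 RPKM in LT-HSCs and 11.9 and 19.2 in LT-CML stem cells (log2 fold change 1.95, SE 0.27, limma adjusted p = 0.00587). Csf2rb, the common beta chain of the receptors for IL-3, IL-5 and GM-CSF, was 3.36 and 3.04 against 10.09 and 12.5 RPKM (log2 fold change 1.55, SE 0.21, limma adjusted p = 0.00500). Csf2rb2, the beta chain specific to IL-3, was 1.33 and 0.987 against 3.28 and 4.11 RPKM, and since 19.5% of its words occurred in other genes, mostly Csf2rb, the pair is not fully separable. Pdgfrb, a receptor for platelet-derived growth factor, was 1.16 and 0.890 against 3.66 and 3.69 RPKM, and Il10ra, the ligand-binding chain of the IL-10 receptor, 0.244 and 0.539 against 1.77 and 2.12. All 5 were without overlap between the groups. The receptors called numbered 3 without LT-HSC replicate 1, 1 without LT-HSC replicate 2, 1 without LT-CML replicate 1 and 0 without LT-CML replicate 2. Kit, the stem cell factor receptor used in the sort, was 164 and 121 and 153 and 119 RPKM and was not called.

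Downstream of these receptors, Pim2, a survival kinase that STAT5 induces, was 8.13 and 7.20 RPKM in LT-HSCs and 24.3 and 23.2 in LT-CML stem cells (log2 fold change 1.52, SE 0.19, limma adjusted p = 0.00426). It was the one called gene among 18 tested STAT5 targets (5.56%, against 2.51% over all genes), whose median was 0.05. Pim2 was not called without either LT-CML library. Of the feedback inhibitors of the same pathway, Cish was 10.8 and 12.8 against 28.9 and 19.8 RPKM (limma adjusted p = 0.0734), Socs2 6.63 and 3.25 against 12.1 and 9.01 (limma adjusted p = 0.142) and Socs3 4.06 and 5.45 against 6.65 and 3.77 (limma adjusted p = 0.956), and none was called. The groups overlapped for Socs3 and not for Cish and Socs2. The ERK feedback genes lay in the other direction. None of 13 was called (limma), 7 had an unadjusted p under 0.05, all 13 had negative log2 fold changes and the median was -0.55. Dusp6, an ERK phosphatase, was 33.3 and 23.7 against 14.8 and 23.3 RPKM, Spry1 10.9 and 12.4 against 4.73 and 8.56 and Spry2, like Spry1 an inhibitor of receptor signalling, 45.9 and 57.0 against 20.4 and 40.3. Bcr was 2.77 and 2.88 against 3.37 and 2.65 RPKM and Abl1 4.47 and 4.12 against 4.04 and 3.93, and reads of the BCR-ABL1 transgene were not analysed here. None of 41 BCR-ABL1, adaptor and kinase genes was called (limma), with 7 at an unadjusted p under 0.05.

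Immediate early genes, which growth factors and stress induce within minutes, were listed together with heat shock genes, and this list was lower in part. Counts of immediate early genes here and below are those of the joint list. Of 29 tested genes of the joint list, 5 fell and none rose (17.2%, against 1.25% of all genes called lower). A negative log2 fold change was found in 26, and the median was -0.48, against -0.02 over all genes. Nr4a1, an orphan nuclear receptor that restrains HSC division, was 252 and 368 RPKM in LT-HSCs and 80.8 and 126 in LT-CML stem cells (log2 fold change -1.58, SE 0.27, limma adjusted p = 0.0162). Nr4a2, of the same family, was 26.6 and 77.5 against 9.01 and 12.3 RPKM (log2 fold change -2.01, limma adjusted p = 0.0369), and Fosl2, an AP-1 subunit, 18.5 and 48.4 against 4.25 and 8.38 RPKM (log2 fold change -2.14, limma adjusted p = 0.0298). Klf4 was 11.5 and 19.4 against 4.75 and 6.33 RPKM and Egr3 1.81 and 2.40 against 0.546 and 0.465. LT-HSC replicate 2 was the highest library in each of these 5 genes. Without it none of the 5 was called, and none was called without LT-CML replicate 1, while 5 genes of the list were called without LT-HSC replicate 1 and 1 without LT-CML replicate 2. Fos, at 382 and 574 against 714 and 408 RPKM, and Egr1, at 81.6 and 199 against 90.4 and 84.8, were not called.

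Genes of stem cell identity and quiescence gave few calls. Among 35 tested HSC genes 26 had a negative log2 fold change and the median was -0.23. In this list 1 gene was lower (2.86%, against 1.25% of all genes called lower and 2.51% called in either direction). That gene was Prdm16, a transcription factor that maintains HSCs, at 3.97 and 4.95 RPKM in LT-HSCs and 1.72 and 1.39 in LT-CML stem cells (log2 fold change -1.09, SE 0.20, limma adjusted p = 0.0259). Its relative Mecom was 22.7 and 25.5 against 16.8 and 14.9 RPKM and Meis1, a homeobox factor of HSCs, 166 and 139 against 132 and 104, neither called. Cdkn1b, which encodes the CDK inhibitor p27, was 14.6 and 14.9 against 7.47 and 5.94 RPKM (log2 fold change -1.04, SE 0.20, limma adjusted p = 0.0309). Foxo3 was 0.278 and 0.493 against 0.451 and 0.323 RPKM and Smad3 6.55 and 8.93 against 5.15 and 4.68, and neither was called. Ets1 and Hhex, transcription factors of lymphoid and early progenitors, were 5.22 and 5.13 against 1.80 and 1.86 and 21.6 and 22.2 against 10.2 and 10.2 RPKM and both fell. In these called genes the normal replicates lay close together and both LT-CML libraries were below them. Cdkn1b, Prdm16, Ets1 and Hhex each lost their call whichever of the 4 libraries was left out. Of 26 CDK inhibitors, D cyclins and quiescence genes 2, Cdkn1b and Nr4a1, were lower, 7.69% against 1.25% of all genes. The median was -0.27. None of 40 mitosis genes and none of 44 DNA replication genes was called (limma), and the medians were 0.03 and -0.10. At an unadjusted p under 0.05 there were 1 and 0, against 1407 of all 11855 genes.

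Lineage genes moved in a few named members, and in sorted bulk cells fewer cells of a type and less RNA per cell cannot be told apart. Of 14 tested erythroid genes 5 were lower (35.7%, against 1.25% of all genes called lower), none was higher and the median was -1.07. Spna1, erythroid alpha-spectrin, stood outside the list under this older symbol and was higher, at 0.493 and 0.470 against 2.65 and 2.02 RPKM (log2 fold change 1.16, limma adjusted p = 0.0130). Hbb-b1, a beta-globin gene, was 6.25 and 56.3 RPKM in the LT-HSC replicates and 0 and 0.263 in the LT-CML replicates, and Hbb-b2 was 6.57 and 33.2 and 0.0792 and 0, copies that share 44.3% and 58.3% of their words. Globin levels were several times higher in LT-HSC replicate 2 than in replicate 1, and each LT-CML library had at most 4 estimated reads of either gene. Car1, a carbonic anhydrase of the erythroid lineage, was 30.6 and 26.7 RPKM in LT-HSCs and 2.71 and 6.11 in LT-CML stem cells (log2 fold change -2.53, SE 0.29, limma adjusted p = 0.00255). Its relative Car2 was 1494 and 1405 against 756 and 494 RPKM (log2 fold change -1.24, limma adjusted p = 0.0266), and Ermap, an erythroid membrane protein, 1.27 and 1.77 against 0.117 and 0.217 RPKM. Car1 was called in each fit without 1 library, whereas the number of lower erythroid genes was 7 without LT-HSC replicate 1, 3 without LT-HSC replicate 2, 2 without LT-CML replicate 1 and 1 without LT-CML replicate 2, with 1 higher gene without LT-HSC replicate 1. Klf1, a transcription factor that defines the lineage, was 1.90 and 0.737 against 0.850 and 0.752 RPKM and was not called.

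Megakaryocyte genes, several of which LT-HSCs express themselves, gave 2 rises and 1 fall among 27, 11.1% against 2.51% over all genes. Itgb3, the beta chain of the platelet fibrinogen receptor, was 4.68 and 5.62 RPKM in LT-HSCs and 18.2 and 18.6 in LT-CML stem cells (log2 fold change 1.66, SE 0.20, limma adjusted p = 0.00292). F2rl2, a thrombin receptor, was 10.2 and 7.08 against 24.9 and 22.9 RPKM (log2 fold change 1.39), and Ppbp, a platelet chemokine, 4.04 and 4.73 against 1.16 and 1.78 RPKM (log2 fold change -1.13). Pf4, Vwf and Itga2b, which define platelets and their precursors, were not called, with Itga2b at 26.7 and 15.1 against 51.0 and 38.4 RPKM. Itgb3 was not called without either LT-CML library. Among 13 basophil, mast cell and eosinophil genes Fcer1a and Alox5 were higher (15.4%, against 1.27% of all genes), and the median was 0.61. Alox5, the lipoxygenase that makes leukotrienes, was 1.06 and 1.23 RPKM in LT-HSCs and 4.75 and 3.42 in LT-CML stem cells (log2 fold change 1.23, limma adjusted p = 0.0162). It was the one call among 30 genes reported by others for CML stem cells (3.33%, against 2.51% over all genes). Alox5 lost its call whichever library was left out. Of 7 B cell markers Cd79a and Vpreb3 were lower, at 1.66 and 3.34 against 0.0728 and 0.331 and 1.33 and 3.41 against 0.321 and 0.274 RPKM, and neither was called without LT-HSC replicate 2 or without either LT-CML library.

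Genes of transport and metabolism were called singly. Among 32 amino acid and peptide transporters 2 were higher (6.25%, against 1.27% of all genes called higher) and none lower. Slc7a8, the light chain of a transporter for large neutral amino acids, was 3.01 and 1.71 RPKM in LT-HSCs and 12.3 and 10.07 in LT-CML stem cells (log2 fold change 1.88, SE 0.24, limma adjusted p = 0.00431), and the other was the dipeptide carrier Slc15a2 (log2 fold change 1.42, limma adjusted p = 0.00668). Both lost their calls without either LT-CML library. Of 196 tested solute carriers 5 were higher and 1 lower, 3.06% against 2.51% over all genes, and the lower one was Slc16a12, a carrier of creatine, at 5.10 and 1.97 against 0.474 and 0.0142 RPKM. Ldhd, a mitochondrial D-lactate dehydrogenase, was the one call among 29 glycolysis genes (3.45%, against 2.51% over all genes). It was 1.29 and 1.21 against 3.54 and 4.15 RPKM (log2 fold change 1.11, limma adjusted p = 0.0183). None of 27 citrate cycle genes was called (limma) and none had an unadjusted p under 0.05, although 22 had a positive log2 fold change, with a median of 0.11. None of 34 fatty acid genes, 23 sterol synthesis genes and 33 antioxidant genes was called (limma). At an unadjusted p under 0.05 there were 6, 1 and 2, against 1407 of all 11855 genes. Edem1, which directs misfolded glycoproteins of the endoplasmic reticulum to degradation, was 2.19 and 2.08 against 7.40 and 7.07 RPKM (log2 fold change 1.39, limma adjusted p = 0.00620). It was the one call among 29 integrated stress and unfolded protein genes (3.45%, against 2.51% over all genes). Cap1, an actin-binding protein, was among the rises at high level, at 41.3 and 31.9 against 135 and 132 RPKM (log2 fold change 1.85, limma adjusted p = 0.00179).

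Other regulatory groups gave single calls or none. In the TGF-beta, BMP and Smad list of 32 genes 6.25% were called, against 2.51% over all genes. Tgfbr3, the co-receptor betaglycan, was 8.68 and 11.3 RPKM in LT-HSCs and 25.9 and 26.2 in LT-CML stem cells (log2 fold change 1.31, limma adjusted p = 0.0113). Inhba, the activin A subunit, was 1.34 and 1.67 against 0.411 and 0.395 (log2 fold change -0.83, limma adjusted p = 0.0424). Jag2, a Notch ligand, was the one call among 31 Wnt and Notch genes (3.23%), at 1.45 and 1.69 against 0.357 and 0.542 RPKM. Zfp57, which guards imprinted methylation, was the one call among 19 imprinted genes (5.26%, against 2.51% over all genes), at 2.08 and 2.65 against 6.66 and 7.23 RPKM (log2 fold change 1.24). None of 34 p38 MAPK cascade genes, 41 Polycomb, trithorax and DNA methylation genes, 26 BCL2 family genes, 25 p53 targets, 30 autophagy genes and 12 Hox genes was called (limma). The numbers at an unadjusted p under 0.05 were 5, 3, 2, 2, 3 and 1, against 1407 of all 11855 genes. With 2.51% of all genes called, lists of these sizes can hold no call, so the absence of calls does not show that these groups were unchanged.

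Histone genes were called in both directions. Of 35 tested, 2 were higher and 6 lower, 22.9% against 2.51% over all genes. Hist1h2bc was 29.8 and 28.6 RPKM in LT-HSCs and 8.89 and 10.5 in LT-CML stem cells (log2 fold change -1.50, limma adjusted p = 0.00438), and Hist1h4i was 6.81 and 4.05 against 0.989 and 1.64 RPKM. Hist1h2ak was 0.889 and 0.417 against 6.83 and 3.05 RPKM and was called higher. Most replication-dependent histone transcripts lack a poly(A) tail and the libraries were primed with oligo-dT, and 38.8 to 47.3% of the words of these 3 genes occurred in other genes. Both called aldo-keto reductases among 9 were lower (22.2%, against 1.25% of all genes called lower), with Akr1b10 at 29.9 and 21.6 against 11.5 and 10.9 RPKM. Of 8 GIMAP GTPases, regulators of lymphocyte survival, 25% were called, against 2.51% over all genes. Gimap3 was higher, at 2.20 and 1.503 against 6.75 and 4.25 RPKM, and Gimap7 lower, at 1.07 and 1.25 against 0.0381 and 0.0866. Among 275 zinc finger genes 7 were higher and none lower (2.55%, against 1.27% of all genes called higher and 2.51% called in either direction). The log2 fold change was positive in 199, with a median of 0.18. Zfp367, a regulator of cell cycle genes, was 14.9 and 14.7 against 34.7 and 36.97 RPKM (log2 fold change 1.22, limma adjusted p = 0.0110). Of 83 cytosolic ribosomal protein genes 1 was called, lower, with a negative log2 fold change in 66 and a median of -0.11.

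The ST stem cell and KLS- libraries, 1 normal and 1 CML each and not used in the fit, were read for the same genes. The ST-CML library differed from the ST-HSC library by 1 or more on log2(RPKM + 1), in the LT direction, in 94 of the 150 higher genes (62.7%, against 2.08% of all genes) and in 98 of the 148 lower genes (66.2%, against 2.11%). Between the KLS- libraries these numbers were 67 (44.7%, against 1.84%) and 60 (40.5%, against 1.41%). With 1 library a group there is no test of these differences. In all, 107 of the 298 called genes differed by 1 or more in the LT direction in both populations, and of the 34 genes called in each fit without 1 library 30 did so in ST and 24 in KLS- cells. Gdpd3 was 0.249 RPKM in ST-HSCs and 132 in ST-CML stem cells, and 1.43 and 41.0 in normal and CML KLS- cells. Trim12 was 33.3 and 0.0704 RPKM in the ST libraries and 12.5 and 0.110 in the KLS- libraries, and Gnb1 was 140.1 and 23.6, then 128 and 19.7. In each population the CML library lay on the same side of the normal one as in LT cells. For Rcvrn and Mmp16 the differences were on the same side but small in some of these libraries. Rcvrn was 0 and 0.202 RPKM in the ST libraries and 0 and 0.106 in the KLS- libraries, and Mmp16 was 0.151 and 9.17 RPKM in the ST but 0.0324 and 0.0491 in the KLS- libraries.

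A few genes went the other way by 1 or more, 5 in the ST and 2 in the KLS- libraries. Car1, lower in LT-CML stem cells, was 21.6 RPKM in ST-HSCs and 91.7 in ST-CML stem cells, and 804 against 1775 in KLS- cells. Pyhin1, higher in LT-CML and ST-CML stem cells, was 29.0 RPKM in normal and 9.40 in CML KLS- cells. The pre-B cell genes Cd79a and Vpreb3 were 0.201 and 0.884 RPKM in ST-HSCs and 6.43 and 7.58 in ST-CML stem cells. Among the interferon-stimulated genes, Rsad2 was 7.55 RPKM in ST-HSCs and 0.822 in ST-CML stem cells, and Cxcl10 was 3.05 against 0.202 in these libraries and 2.46 against 0.264 in KLS- cells. Bst2 was 25.5 against 9.04 and 44.8 against 16.8 RPKM in the same order. Flt3, in contrast, was already 61.6 RPKM in ST-HSCs, with 71.6 in ST-CML stem cells.

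**Figure D5:**
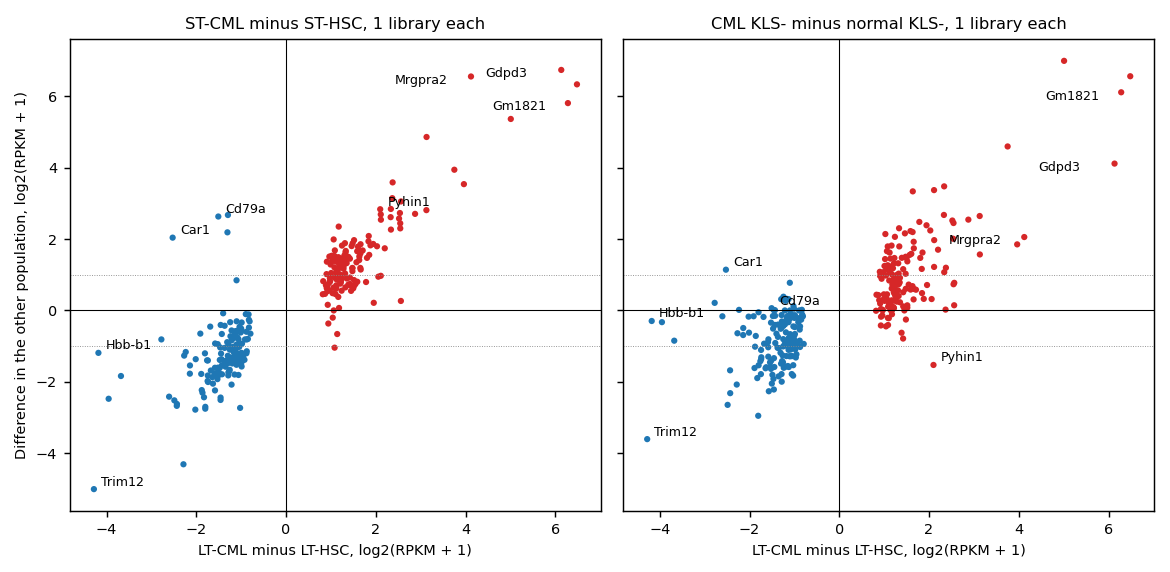
Each of the 298 called genes is plotted by its LT difference (horizontal axes) and its difference between the CML and the normal library (vertical axes, log2(RPKM + 1)) of ST stem cells (left) and KLS- progenitors (right), with dotted lines at 1 and -1 and genes higher in LT-CML in red and lower in blue. Most points share the sign of the LT difference, and Car1 lies on the other side in both panels and Pyhin1 in the right one.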

How the data were processed

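RNA of sorted cells had been converted to cDNA by oligo-dT priming (SMARTer Ultra Low Input kit) and sequenced as paired-end reads of 100 bases, mapped to mm9 (NCBI Build 37) through the DNAnexus service. The authors deposited 1 RPKM value per gene and library, without counts. The gene annotation, counting rule and treatment of reads with several matches are not given in the sources used here, nor whether counting used strand. Symbols were matched to GENCODE M1 loci (93.2% to 1 locus). Depth was estimated from the common steps of low RPKM values, which lay on whole multiples (tolerance 0.02) in 86.4% of 3292 low genes.

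Genes that summed to more than 1 RPKM in the 4 LT libraries were fitted with limma 3.58.1 (R 4.3.3) on log2(RPKM + 1), 2 group means, moderated with an intensity trend (2 residual degrees of freedom, median prior 7.21) and adjusted by Benjamini-Hochberg over 11855 genes. Genes named are the 20 largest rises and falls without overlap, called members of 49 function lists and of symbol families, markers and paralogues. Members and lists were chosen with earlier results of these data known. Lists were described by counts and medians only. Shared sequence is the share of a gene's annotated 50-base words found in other genes. Alternatives were other pseudocounts, minima, scalings and fits, each library left out, and, added after seeing the data, sequence-sharing genes left out. The ST and KLS- libraries have 1 per group and were not tested. Some genes are not reported here.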

Additional observations from a re-analysis of the deposited data

How the results depend on the processing

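With all 4 libraries, 150 genes were higher and 148 lower, 68 calls fell in the function lists and 117 in the symbol families. No called gene changed direction under any alternative run. Without a minimum on RPKM (17706 genes tested), 52 genes were higher and 32 lower, with 14 calls in the function lists and 39 in the families. Lower calls were then 1 interferon-stimulated gene, 0 erythroid genes and 0 immediate early and heat shock genes (limma). Of the cytokine receptors 0 were higher, and of the H2- genes 4 were higher and 1 lower. The share that differed by 1 or more in the LT direction was then 75% for called genes in ST libraries and 53.6% for called genes in KLS- libraries, against 64.4% and 42.6%. The cause was not tested beyond the larger number of genes. Lower immediate early and heat shock genes numbered 3 with a pseudocount of 4 RPKM, 1 after quantile normalization and 2 after upper-quartile scaling, against 5. With a mean of at least 1 RPKM, 4 H2- genes were higher, against 7. Without genes that share sequence or lack annotated sequence (chosen after seeing the data, 10520 genes), 113 genes were higher and 101 lower, with 70 calls in the families, 2 lower erythroid genes, 3 higher cytokine receptors, and 3 higher and 2 lower H2- genes.

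With 1 library left out, the higher genes numbered 33 to 95 and the lower genes 13 to 134, both lowest without LT-CML replicate 2. Calls in function lists ranged from 11 to 71, in symbol families from 23 to 96, in lower interferon-stimulated genes from 0 to 9, lower erythroid genes from 1 to 7, higher cytokine receptors from 0 to 3, lower immediate early genes from 0 to 5, and H2- genes from 2 to 6 higher and 0 to 6 lower. The share for called genes in ST libraries ranged from 53.3% to 89.1% and that for called genes in KLS- libraries from 33.6% to 73.9%. Of the 298 called genes, 62 passed in every alternative that kept all 4 libraries (the one added after seeing the data aside), and 37 without LT-HSC replicate 2 and without LT-CML replicate 2. No paired analysis was possible because the replicate numbers of the normal libraries are not from the labels.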

Other observations

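The rest of the 34 genes called in each fit without 1 library lie outside the lists described above. Mgl1, a C-type lectin of macrophages, was 0.373 and 0.280 RPKM in LT-HSCs and 4.596 and 7.02 in LT-CML stem cells. Tmem87a, a transmembrane protein, was 4.76 and 4.08 against 22.4 and 19.8 RPKM (log2 fold change 2.03, limma adjusted p = 0.00109). Of the transcripts without a gene name, Gm12166 was 1.57 and 1.10 against 8.60 and 9.49 RPKM and AI429214 was 0.333 and 0.193 against 3.80 and 3.23, and 1700112E06Rik was higher as well. All 5 were higher in both LT-CML libraries than in both LT-HSC libraries, and each was also higher in the single CML than in the single normal library of the ST and KLS- cells, by more than 1 on log2(RPKM + 1), with no replicate check there. The remaining transcript, 5830443L24Rik, was called lower, with both LT-CML libraries below both LT-HSC libraries.

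A motif of STAT factors, TTC and GAA separated by any 3 bases and searched on both strands, occurred in the 250 bases before the start of 11 of 88 genes called higher (12.5%), 5 of 85 called lower (5.88%) and 7.31% of the tested genes with a promoter in the RefSeq table. These shares are descriptions of letters and were not tested.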
